A study of Homo sapiens with 18 samples.

Results

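Chromatin accessibility was examined at 10 genes of cytokine signalling: the receptor genes IL4R, IL21R and IL10RA, the kinase genes JAK1, JAK2 and JAK3, the transcription factor genes STAT3 and STAT6, and the inhibitor genes SOCS1 and SOCS3. A peak belonged to a gene when its centre lay inside the gene's span in RefSeq on GRCh38, or else when that protein-coding gene was the nearest within 50 kb. This gave 57 of the 71318 peaks, with at least 2 at every gene (14 at JAK1, 8 each at IL4R and IL21R, 6 at IL10RA, 5 at SOCS1, 4 each at JAK2 and STAT3, 3 each at STAT6 and SOCS3, and 2 at JAK3). At the edge of the 50 kb limit, the JAK2 peak 47.4 kb outside the gene held a mean of 3.39 CPM (GFP high) and 1.73 in GFP low. The nearest unassigned peak, 60.0 kb from JAK2, held 5.24 and 6.27.

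Receptors for cytokines have no kinase activity of their own and carry Janus kinases (JAKs) on their tails. Ligand binding lets the JAKs phosphorylate the receptor and then STAT proteins, which pair, enter the nucleus and bind DNA. SOCS genes are induced by STATs, and their products block the receptors and JAKs, which closes the loop. In B cells, IL-4 signals through IL4R, JAK1, JAK3 and STAT6, and IL-21 through IL21R, JAK1, JAK3 and STAT3. Both cytokines come from helper T cells in the germinal centre, while IL-10 acts through IL10RA and JAK1 on STAT3.

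The libraries were Omni-ATAC-seq libraries of Raji, an established B-cell line of Burkitt lymphoma origin. In that assay a transposase cuts and tags open DNA. All samples carried the genotype label Smarca4+/+ and came from a series on an auxin-inducible degron acting on SMARCA4 (BRG1), the ATPase of the BAF chromatin remodelling complex. Cells had a high or a low GFP level (groups GFP_HIGH and GFP_LOW) at 24, 48 or 72 h, with 3 samples of each. The sample titles number these as replicates 1 to 3. What GFP reports, which agent was given, which GFP level goes with loss of SMARCA4 and whether the line is 1 clone are not stated in the labels. The groups are therefore named by GFP level alone.

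The 3 columns of a group differed by a like multiple of counting noise in all 18 pairs (1.78 to 1.81, each a mean over peaks). Whether that multiple is the same for weak and strong peaks was not tested. The columns were summed to 1 library, which left 6 libraries of 22908652 to 29790483 counts. The labels number replicates, but nothing in them says that columns came from separate cultures. A value below is therefore 1 library per GFP level and time, in CPM (read counts scaled per library to a common total). All peaks were 501 bp wide, so levels do not differ between genes through peak width. Nothing else that differs between sites was corrected for. Member peaks held 22 to 2258 counts per library. Of 7 B-cell marker genes, 6 had a peak within 1 kb of a gene end. Of 7 T-cell markers 4 had such a peak, of 5 myeloid markers 1, and of 4 epithelial markers 0. The sums of these gene-end peaks differed with GFP level. The B-cell sum was 213.8 to 221.3 CPM in the GFP high libraries and 222.5 to 233.4 CPM in the GFP low ones. The T-cell sum was 80.6 to 83.7 CPM (GFP high) against 73.1 to 74.7 CPM, and the myeloid sum 11.9 to 13.5 CPM against 8.35 to 11.04 CPM. In none of these 3 sums did the GFP levels overlap, and their part in the results was not tested. Single peaks did not all follow their sum. As log2 of GFP low over GFP high, the myeloid sum held only ITGAM peaks, at -0.80 and 0.12. In the T-cell sum the peaks of CD3D, CD3E and CD2 were below 0 and that of CD8A was at 0.18. B-cell peaks ran from -0.12 (CD79B) to 0.21 (CR2), beside a median of 0.18 for all gene-end peaks. In bulk libraries, fewer cells with an open site and a less open site in each cell cannot be told apart.

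The promoter windows of STAT3, JAK1 and SOCS1 are shown because a start-site peak described below covers all or most of each (250, 204 and 220 bases), and because their listed start is the outer end of the gene. The STAT3 peak was called higher in GFP low, and those of JAK1 and SOCS1 were not called. Each run is the 250 bases before the start on the gene's strand, from RefSeq on GRCh38.p14, in which all 10 genes had an entry. Capitals mark a match to a searched motif.
STAT3 (chr17:42388443-42388692, minus strand): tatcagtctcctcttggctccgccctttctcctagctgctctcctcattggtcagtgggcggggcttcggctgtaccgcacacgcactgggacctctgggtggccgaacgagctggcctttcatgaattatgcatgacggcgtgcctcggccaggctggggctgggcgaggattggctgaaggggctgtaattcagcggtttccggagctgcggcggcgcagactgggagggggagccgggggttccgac
JAK1 (chr1:65067747-65067996, minus strand): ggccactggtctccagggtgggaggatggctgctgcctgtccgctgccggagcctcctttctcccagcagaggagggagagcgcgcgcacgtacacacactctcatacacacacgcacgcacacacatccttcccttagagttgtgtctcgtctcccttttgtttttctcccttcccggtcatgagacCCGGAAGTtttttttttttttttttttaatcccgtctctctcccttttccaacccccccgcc
SOCS1 (chr16:11256205-11256454, minus strand): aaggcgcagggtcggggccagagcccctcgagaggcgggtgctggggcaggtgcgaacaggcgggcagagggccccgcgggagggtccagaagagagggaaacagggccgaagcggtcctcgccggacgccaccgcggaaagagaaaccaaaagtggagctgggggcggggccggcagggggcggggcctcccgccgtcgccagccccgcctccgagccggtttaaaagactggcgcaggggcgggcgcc
The last 30 bases before the starts of JAK2 and IL21R that lie under their called peaks complete the set, kept short because an earlier start of either gene may transcribe these bases.
JAK2 (before the start at 4985086 on chromosome 9, plus strand): cccagcctctatccggcccggtctcctgcc
IL21R (before the start at 27427271 on chromosome 16, plus strand): cagcctcaggcaaaccactagaggcagctc

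The motifs searched on both strands were TTCNNNGAA for STAT factors, the same arms with 4 bases between them for STAT6, TGANTCA for AP-1 and CCGGAAGT for ETS factors. Over the 34943 promoter windows of 250 bases, 6.56%, 5.39%, 6.59% and 3.39% held a match in that order. Among the 16 windows of the 10 genes there were 2 matches. The ETS letters stood 62 to 55 bases before the JAK1 start, and an AP-1 match stood before the listed IL10RA start, where no peak lay. The STAT3 window had 64.4% G and C, the SOCS1 window 74% and the JAK1 window 55.6%, beside a median of 58% over all windows. The window before the JAK2 start had 75.6% and that before the IL21R start 49.2%.

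GFP low was compared with GFP high over the 3 times to ask which of these regions differ between the cell populations. In GFP low, regions away from start sites fell at JAK1, JAK2, IL10RA, SOCS3, STAT3 and IL4R, and start-site peaks of JAK2, STAT3 and IL21R rose. Rises at start sites were common, as all peaks within 1 kb of a start had a median log2 change of 0.18 and 35.9% were called higher. The largest fall was at SOCS3 (log2 change -1.55) and the falls at JAK2, IL10RA and JAK1 reached -1.11, -1.03 and -1.02, while called rises reached 0.47. All lower peaks of JAK2 and SOCS3 lay 12.9 to 47.4 kb outside the gene and were given to it by distance alone. No peak of JAK3, STAT6 or SOCS1 passed the test. With edgeR's quasi-likelihood test at a Benjamini-Hochberg adjusted p under 0.05 over all peaks, 14 of the 57 peaks were lower (24.6%) where 25.4% of all peaks were. Another 6 were higher (10.5%) where 13.4% of all peaks were. The median log2 change was -0.06 for the 57 and 0.03 for all peaks, so as a set they changed about as often as any peaks. Of the 20 calls, 10 lower and 2 higher ones were also made in every alternative that kept the peak. The alternatives reuse the same counts, and the share of all called peaks that keep their call in this way was not counted.

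**Figure D1:**
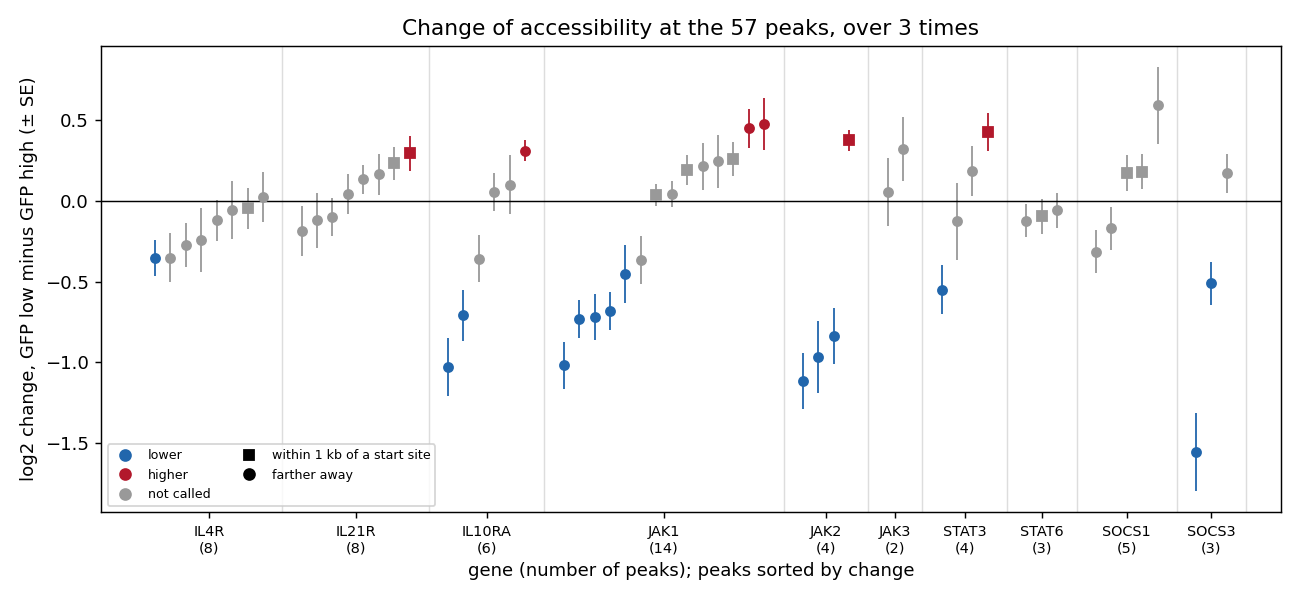
Log2 change (GFP low minus GFP high, vertical axis, ± SE of the edgeR fit on 6 libraries) of each of the 57 peaks, grouped by gene and sorted by change. Blue and red mark the 14 lower and 6 higher calls, grey the rest, and squares mark the peaks within 1 kb of a listed start site, none of which is blue.

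The calls of the 57 peaks were set against their distance from start sites. Of the 11 peaks within 1 kb of a listed start, 0 were lower and 3 were higher, beside 3.15% and 35.9% of the 11794 such peaks in all. Of the 46 peaks farther away, 14 were lower and 3 higher, beside 28.7% and 9.23% of 47742. Peaks near starts were also the stronger, at a median of 25.8 CPM against 6.87 farther away. Peaks within 1 kb of either end of a gene numbered 13, with 0 lower (4.24% of such peaks in all) and 3 higher (34.4%). The rest lay farther than 1 kb from any gene end. Of 22 such peaks inside genes 7 were lower (30.3% in all) and 2 higher (7.98%). Of 22 between genes 7 were lower (30.6%) and 1 higher (8.96%). In 16 of the 57 peaks every GFP low library lay below every GFP high one (25.1% of all peaks), and in 7 every one lay above (20.8%).

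The receptor genes came to 22 peaks, with 3 lower and 2 higher (13.6% and 9.09%, beside 25.4% and 13.4% of all peaks). IL10RA, the ligand-binding chain of the IL-10 receptor, had the larger changes. Its peak 30.4 kb before the listed start (chr11:117959316-117959816) held 5.63, 4.54 and 6.07 CPM at 24, 48 and 72 h in GFP high and 2.93, 2.20 and 2.82 in GFP low. Every GFP low library was below every GFP high one, and the fitted difference was -1.03 ± 0.18 (log2 ± SE, adjusted p = 9.27e-05). A peak inside the gene, 2.4 kb after the start (chr11:117992137-117992637), went from 6.11, 6.64 and 7.11 to 3.36, 3.84 and 5.03 CPM (-0.71 ± 0.16, adjusted p = 0.00103). Its difference was -0.85 at 24 h and -0.49 at 72 h, with overlapping counting intervals.

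The strongest IL10RA peak behaved the other way. It lies at the outer end of the gene's span, 3.6 kb before the listed start (chr11:117986093-117986593). It held 51.2, 61.9 and 65.1 CPM (GFP high) and 70.1, 73.0 and 76.7 in GFP low, again without overlap. The rise was 0.31 ± 0.07 (adjusted p = 0.000704), and with loess scaling, which removes trends with abundance, it came to 0.12 and lost its call (adjusted p = 0.122). The remaining 3 IL10RA peaks were not called, at -0.36, 0.05 and 0.10.

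IL4R, which binds IL-4 and, in its other receptor, IL-13, had 1 call among 8 peaks. The region 2.8 kb beyond its end (chr16:27367357-27367857) held 15.8, 18.3 and 20.5 CPM (GFP high) and 12.7, 14.5 and 15.3 (GFP low; -0.35 ± 0.11, adjusted p = 0.0141). The GFP levels did not overlap, and the call was lost without the 72 h libraries (adjusted p = 0.18). The adjoining peak (chr16:27367868-27368368) was not called (-0.12 ± 0.13) and its libraries overlapped. The start-site peak of IL4R (chr16:27313659-27314159) held 9.54, 10.1 and 9.72 CPM (GFP high) and 10.9, 8.99 and 8.66 (GFP low; -0.05 ± 0.13, adjusted p = 0.779). That was the weakest start-site peak among these genes, and its libraries overlapped.

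IL21R, the IL-21 receptor gene that follows IL4R on chromosome 16, had 1 call among 8 peaks. Its listed start lies inside the gene's span, and the peak over it (chr16:27426935-27427435) held 17.9, 18.3 and 18.7 CPM (GFP high) and 25.5, 19.6 and 22.5 in GFP low. The groups did not overlap, and they were nearest at 48 h. The rise of 0.29 ± 0.11 (adjusted p = 0.0401) kept its call in 18 of 29 alternatives and lost it with DESeq2 (adjusted p = 0.0919). The peak next to it, 0.6 kb before the start, stood at 0.23 ± 0.10 (adjusted p = 0.0772). The strongest IL21R peak, at the outer end of the span 25.1 kb before that start (chr16:27401907-27402407), held 29.5, 30.6 and 27.5 against 33.6, 32.2 and 30.3 CPM (0.13 ± 0.09, adjusted p = 0.257). Its lowest GFP low library lay below its highest GFP high library.

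The kinase genes held 20 peaks, of which 8 were lower and 3 higher (40% and 15%, beside 25.4% and 13.4% of all peaks). Inside genes and between them, where most of these peaks lie, 30.3% and 30.6% of all peaks were lower. JAK1, the kinase shared by the IL-4, IL-21 and IL-10 receptors, has a downstream start site whose peak lies 101.4 kb after the upstream one. Its 14 peaks split along the gene. From the downstream start on, 5 of 9 peaks were lower and 0 higher. Around and after the upstream start, 0 of 5 were lower and 2 were higher. This split was drawn after the values were seen.

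The JAK1 peak 67.8 kb after the downstream start (chr1:64898452-64898952) held 11.01, 10.2 and 8.52 CPM (GFP high) and 4.21, 5.16 and 5.23 in GFP low. It fell by 1.02 ± 0.15 on the log2 scale (adjusted p = 1.07e-05). The peak 70.9 kb after that start (chr1:64895365-64895865) held 18.4, 15.8 and 16.5 against 11.04, 10.6 and 8.96 CPM (-0.73 ± 0.12, adjusted p = 3.46e-05). In both peaks all GFP low libraries were below all GFP high ones. Peaks 9.6 and 32.9 kb after the downstream start fell by similar amounts (-0.72 ± 0.14 and -0.68 ± 0.12), again without overlap. The fifth, 49.1 kb after it, was weaker (-0.45 ± 0.18, adjusted p = 0.0466), and kept its call in 15 of 29 alternatives.

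The downstream JAK1 start itself carried the strongest peak of the gene (chr1:64966084-64966584), at 67.5, 62.4 and 63.0 CPM (GFP high) and 62.5, 67.6 and 67.5 in GFP low. Its libraries overlapped fully (0.03 ± 0.07, adjusted p = 0.689). Over the upstream start, whose window is printed above, the peak at chr1:65067450-65067950 held 21.5, 22.4 and 21.6 against 29.1, 24.4 and 25.0 CPM. It did not overlap between groups but missed the test (0.26 ± 0.10, adjusted p = 0.055). The strongest peak at an end of the gene lay 0.8 kb after that start (chr1:65066682-65067182). It held 28.8, 25.2 and 28.0 CPM (GFP high) and 32.1, 31.4 and 29.9 in GFP low. The groups were apart there too, and the peak was not called (0.19 ± 0.10, adjusted p = 0.116). A peak 7.8 kb before that start (chr1:65075286-65075786) rose by 0.45 ± 0.12 (adjusted p = 0.00579), from 7.91, 9.15 and 7.59 to 10.8, 12.7 and 10.2 CPM. Another 7.7 kb after the start (chr1:65059841-65060341) rose by 0.47 ± 0.16 (adjusted p = 0.0232, and 0.12 with DESeq2), from 4.17, 3.52 and 4.22 to 5.71, 5.01 and 5.81 CPM.

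JAK2, which serves among others the interferon gamma and IL-12 family receptors, was the gene in which every peak was called. The 3 peaks before the gene fell. The nearest, 12.9 kb before it (chr9:4971261-4971761), held 7.31, 6.20 and 5.74 CPM (GFP high) and 2.63, 3.27 and 2.95 (GFP low; -1.11 ± 0.17, adjusted p = 2.71e-05). The peaks 45.2 and 47.4 kb before it changed by -0.83 ± 0.17 and -0.96 ± 0.22, and in all 3 the groups were apart.

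The peak over the JAK2 start sites (chr9:4984844-4985344) was higher in GFP low, at 62.9, 71.0 and 74.7 CPM against 51.5, 53.7 and 55.8. The log2 change was 0.37 ± 0.07 (adjusted p = 0.000105), and with loess scaling it was 0.19 and still called (adjusted p = 0.0204). All GFP low libraries exceeded all GFP high libraries. JAK3, the kinase paired with the common gamma chain of the IL-4 and IL-21 receptors, had 2 weak peaks inside the gene at 2.96 and 2.98 CPM in GFP high. They changed by 0.32 ± 0.20 and 0.05 ± 0.21 and were not called.

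**Figure D2:**
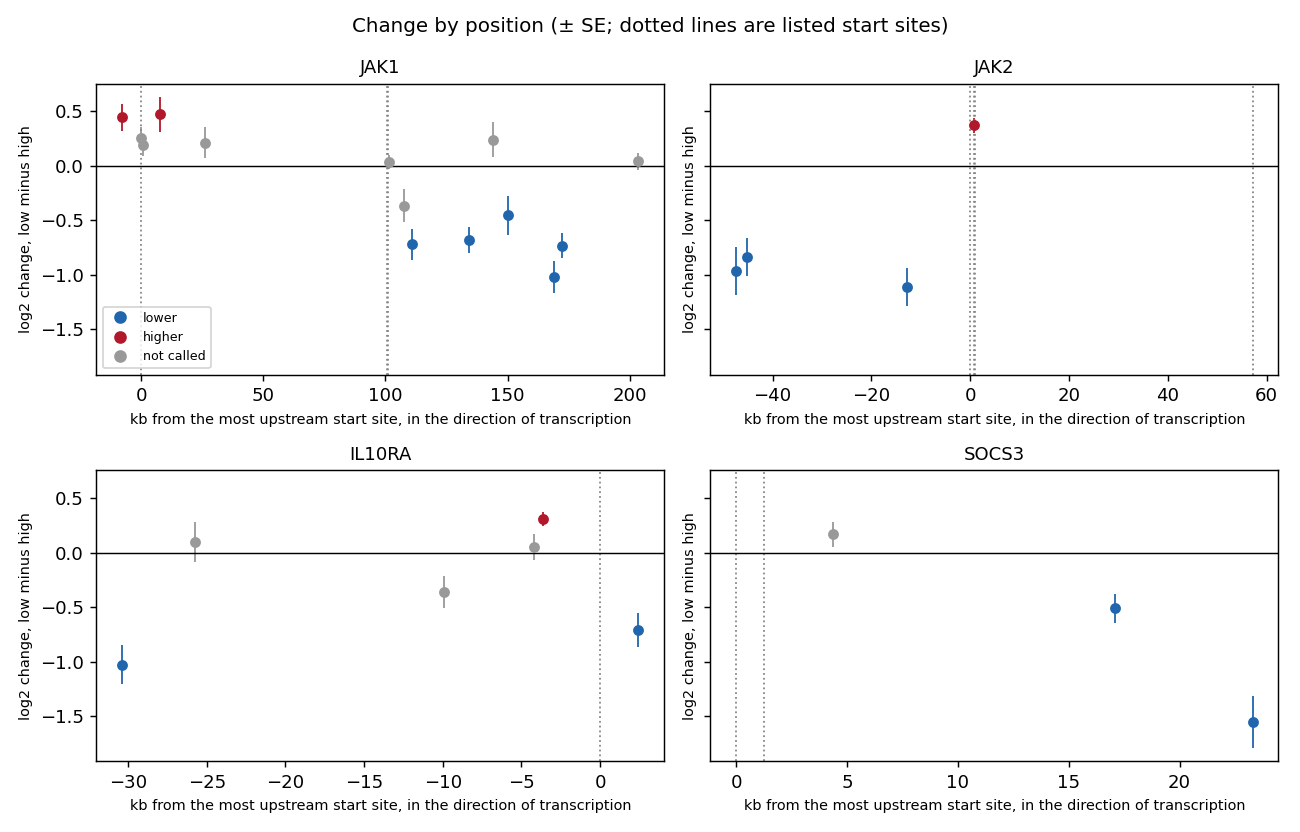
Log2 change (GFP low minus GFP high, vertical axis, ± SE) of each peak against its distance in kb from the most upstream listed start (horizontal axis) at JAK1, JAK2, IL10RA and SOCS3, with start sites as dotted lines. At JAK1 the 5 lower calls lie beyond the downstream start, and at JAK2 the 3 lower calls lie before the gene while the start-site peak is higher.

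Of the 7 peaks of the STAT genes, 1 was lower and 1 higher (14.3% each), both at STAT3, the factor downstream of IL-21 and IL-10. The peak over the STAT3 start (chr17:42388304-42388804), under which the whole printed window lies, held 21.2, 30.6 and 25.4 CPM (GFP high) and 38.5, 30.2 and 34.5 in GFP low. The GFP levels met at 48 h and were apart at 24 and 72 h, so the groups overlapped. The log2 change of 0.42 ± 0.12 passed edgeR (adjusted p = 0.00666) but not DESeq2 (adjusted p = 0.17). Toward the other end of the gene, 72.9 kb after the start (chr17:42315277-42315777), accessibility fell from 7.48, 8.30 and 5.42 to 5.05, 4.91 and 4.41 CPM. That change was -0.55 ± 0.15 (adjusted p = 0.00585), without overlap, and missed the threshold with DESeq2 (adjusted p = 0.0521) and without the 48 h libraries (adjusted p = 0.0701).

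STAT6, the factor through which IL-4 acts, had 3 peaks with group means of 21.5 to 28.2 CPM within 2.1 kb before its start, and none was called. Their log2 changes were -0.10 ± 0.11, -0.12 ± 0.10 and -0.06 ± 0.11. The strongest (chr12:57110402-57110902) held 26.8, 30.7 and 27.2 CPM (GFP high) and 31.6, 23.6 and 24.6 in GFP low. Without the 24 h libraries its change was -0.25 (adjusted p = 0.029).

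The inhibitor genes had 2 of 8 peaks lower (25%) and 0 higher, beside 25.4% and 13.4% of all peaks. SOCS3, an inhibitor that STAT3 induces, had 2 lower peaks of 3. The peak 22 kb after its listed start and 19.1 kb beyond the gene (chr17:78337379-78337879) was weak, at 3.27, 3.39 and 4.98 CPM (GFP high) and 1.54, 0.782 and 1.70 in GFP low. Its log2 change of -1.55 ± 0.24 (adjusted p = 2.73e-05) was the largest of the 57, and the groups did not overlap. The lowest of these values rests on 22 counts. The peak 12.9 kb beyond the gene (chr17:78343587-78344087) held 9.33, 10.92 and 10.002 CPM against 6.47, 6.47 and 8.39 (-0.51 ± 0.13, adjusted p = 0.00426). It lost its call without the 48 h libraries (adjusted p = 0.063). The peak at the end of the gene was not called (0.17 ± 0.12).

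SOCS1, an inhibitor that binds JAKs and is often mutated in B-cell lymphoma, had no called peak among 5. The peak over its start (chr16:11255924-11256424), which covers 220 bases of the printed window, held 18.8, 25.3 and 25.1 CPM (GFP high) and 27.1, 25.5 and 25.1 in GFP low. The GFP levels were close at 48 and 72 h, and the change was 0.17 ± 0.11 (adjusted p = 0.226). A weak peak 17.5 kb after the start (chr16:11238462-11238962) moved from 2.58, 2.00 and 1.97 to 2.38, 3.34 and 4.21 CPM. It stood just above the threshold (0.59 ± 0.24, adjusted p = 0.0519), and was called with loess scaling (adjusted p = 0.0191) and without the 24 h libraries (0.93, adjusted p = 0.00182).

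**Figure D3:**
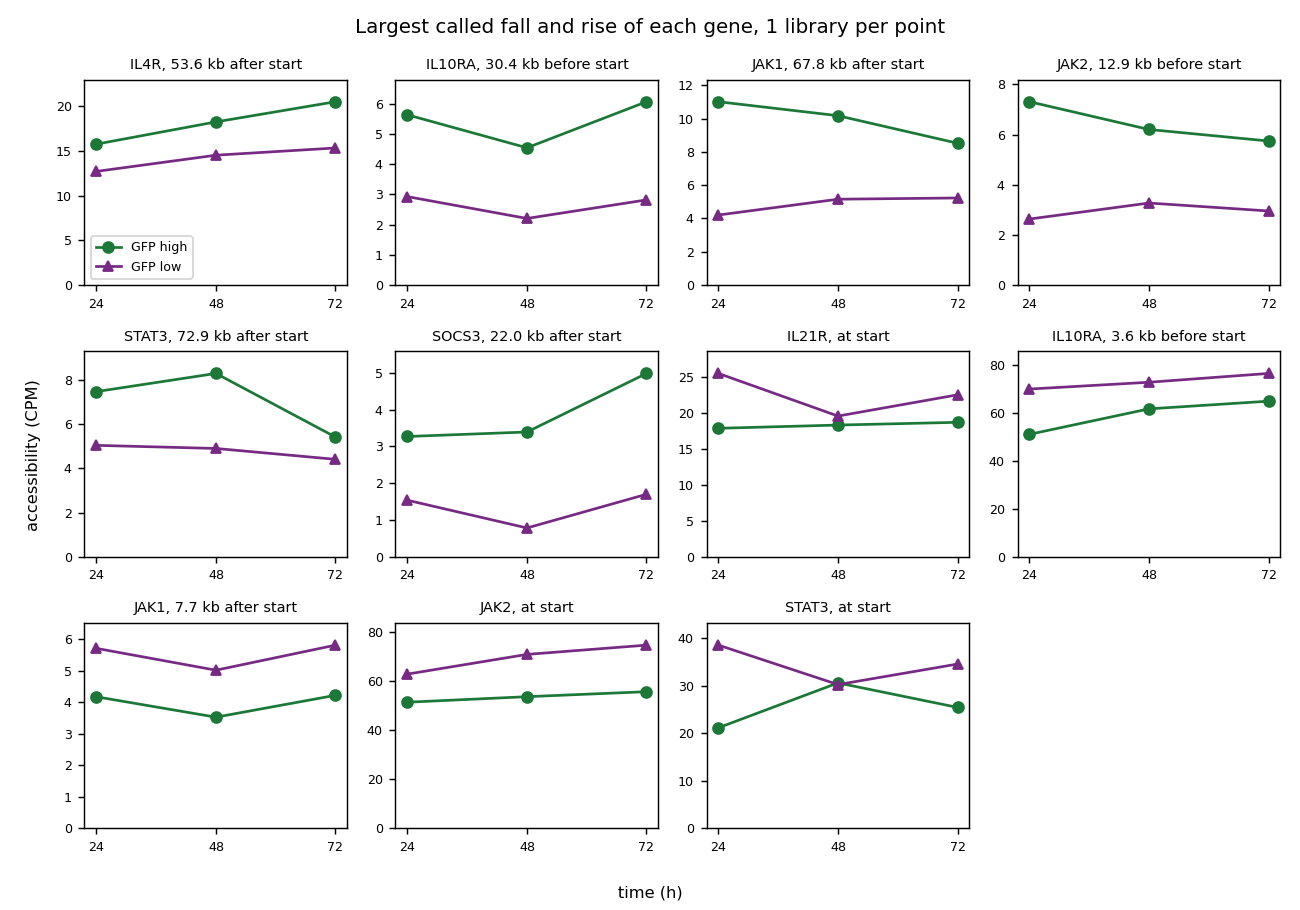
Accessibility in CPM (vertical axis, from 0) at 24, 48 and 72 h (horizontal axis) in GFP high (circles) and GFP low (triangles), 1 library per point, for the peak with the largest called fall of 6 genes and the largest called rise of 5. GFP low lies below GFP high at every time in the 6 falls, and the lines meet at 48 h for the STAT3 start.

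At single times each GFP level had 1 summed library, so differences had no replicate check. At least 2-fold lower in GFP low were 5 of the 57 peaks at 24 h, 2 at 48 h and 2 at 72 h, beside 8.16%, 3.85% and 3.83% of all peaks. The 5 at 24 h were the JAK2 peaks 12.9 and 47.4 kb before the gene (-1.45 and -1.02), the JAK1 peaks 67.8 and 9.6 kb after its downstream start (-1.37 and -1.05), and the far SOCS3 peak (-1.05). At 48 and 72 h the far SOCS3 peak (-2.02 and -1.51) and the distal IL10RA peak (-1.02 and -1.09) passed 2-fold. At least 2-fold higher were 0, 0 and 1 peaks, beside 0.212%, 0.226% and 0.0911% of all peaks. The 1 was the weak SOCS1 peak at 72 h, at 1.07 with a 95% counting interval of 0.44 to 1.70, and it had stood at -0.11 (-0.78 to 0.55) at 24 h.

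Of the 20 called peaks 19 kept 1 sign over the 3 times. Among all peaks, with 18125 lower and 9570 higher calls, 27100 called peaks did so. The calls were made from these same differences, so a shared sign is no separate support. The exception among the 20 was the STAT3 start, at 0.86 (0.66 to 1.07) at 24 h, -0.02 (-0.20 to 0.16) at 48 h and 0.44 (0.25 to 0.63) at 72 h. The IL21R start stood at 0.51 (0.28 to 0.75), 0.09 (-0.13 to 0.32) and 0.27 (0.04 to 0.50). The median over all peaks within 1 kb of a start was 0.26, 0.08 and 0.18 at these times, also highest at 24 h and lowest at 48 h. The JAK2 start instead stood at 0.29, 0.40 and 0.42 with overlapping intervals. At the JAK1 peak 67.8 kb after the downstream start the difference went from -1.37 (-1.80 to -0.95) at 24 h to -0.70 (-1.09 to -0.30) at 72 h. Changes of the GFP difference with time were not tested, since each rests on 1 library per GFP level and time, and the intervals cover counting error only.

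**Figure D4:**
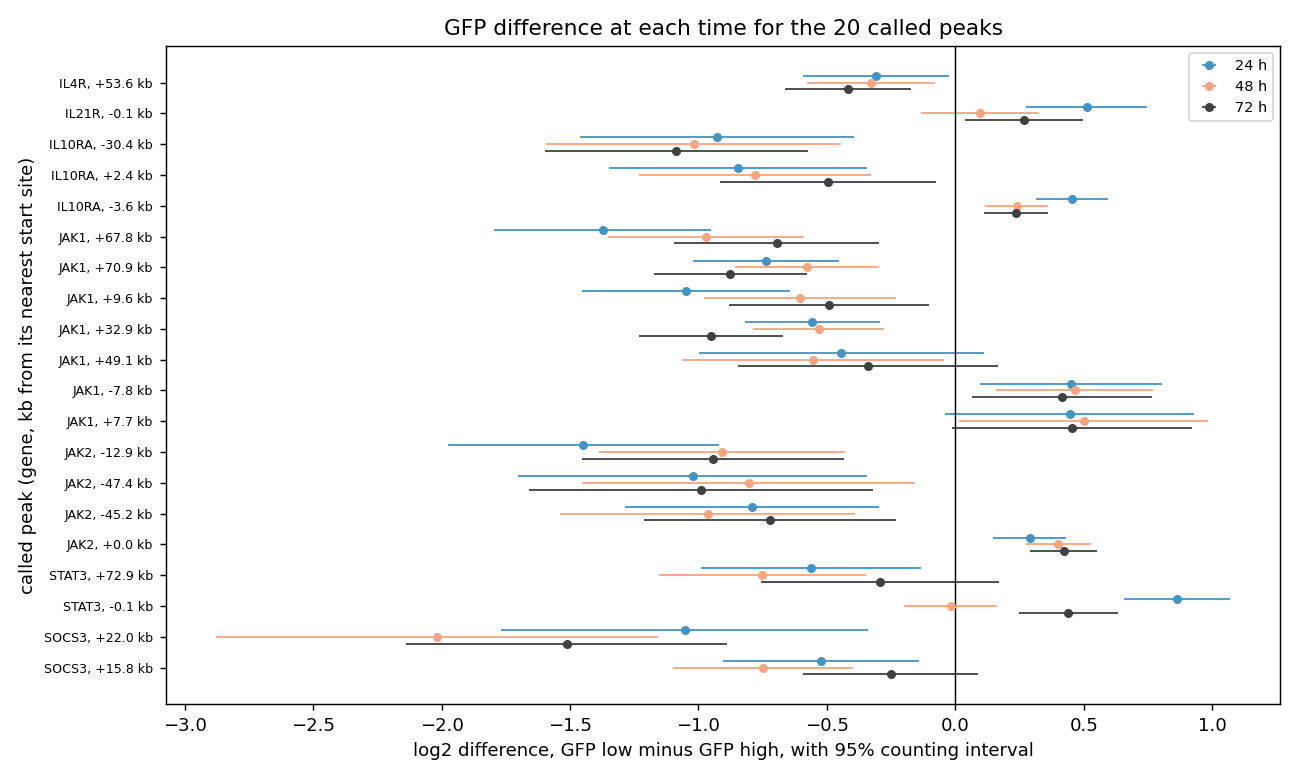
Log2 difference between GFP low and GFP high (horizontal axis, with 95% counting intervals) at 24, 48 and 72 h for the 20 called peaks, named by gene and distance from the nearest listed start in kb. In 19 peaks the 3 points lie on the same side of 0, and the STAT3 start has its 48 h point at -0.02.

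Change with time was tested over both GFP levels, as 72 h against 24 h with 2 libraries each and the D numbers of the headers read as days. Of the 57 peaks 1 was lower (1.87% of all peaks were) and 2 were higher (0.882%). Both higher peaks lay before IL4R. The peak 12.2 kb before its start (chr16:27301493-27301993) held 3.57, 5.53 and 7.35 CPM at 24, 48 and 72 h in GFP high, and 3.00, 6.68 and 7.20 in GFP low. In both levels 24 h was lowest and 72 h highest. It rose by 1.15 ± 0.20 (log2, edgeR adjusted p = 0.00196), with no GFP difference passing the test (0.02 ± 0.16). The peak 14.3 kb before the start (chr16:27299419-27299919) held 4.51, 6.07 and 8.20 CPM (GFP high) and 3.91, 4.48 and 6.25 in GFP low. That rise was 0.77 ± 0.19 (adjusted p = 0.0231, and 0.193 with DESeq2). One more peak there, 15.7 kb before the start, had the same order of times in both GFP levels and missed the threshold (0.83 ± 0.24, adjusted p = 0.0654).

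The peak that fell lies inside JAK1, 43.0 kb after the downstream start (chr1:64923318-64923818). It held 6.79, 3.76 and 2.85 CPM (GFP high) and 7.46, 4.55 and 3.63 in GFP low. Between 24 and 72 h it changed by -1.14 ± 0.20 (log2, adjusted p = 0.00223). Its GFP difference was not called (0.24 ± 0.16). Start-site peaks were not called for time, including that of IL4R (-0.16 ± 0.16, adjusted p = 0.671). The median change from 24 to 72 h was 0.00 for the 57 peaks and -0.00 for all peaks.

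**Figure D5:**
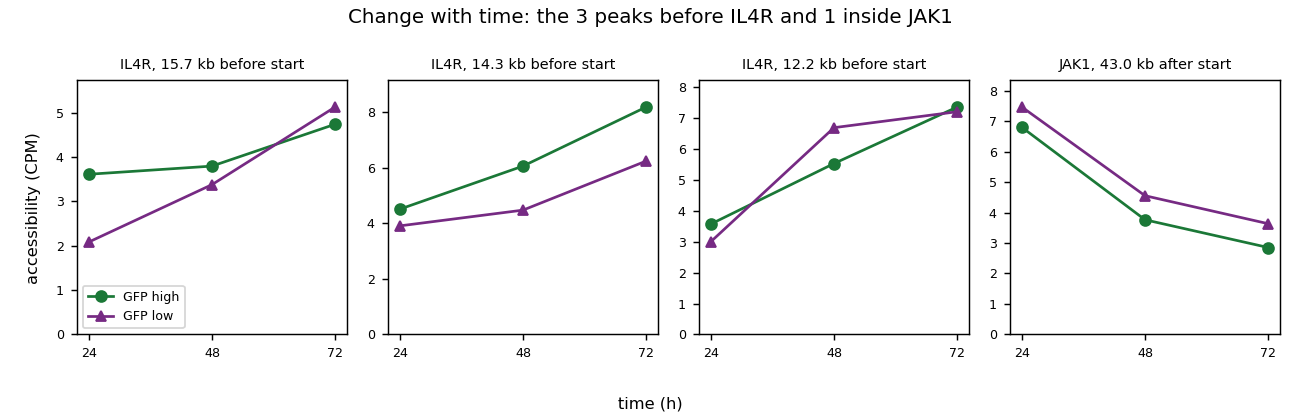
Accessibility in CPM (vertical axis, from 0) at 24, 48 and 72 h (horizontal axis) in GFP high (circles) and GFP low (triangles), 1 library per point, at the 3 peaks 12.2 to 15.7 kb before IL4R and at the JAK1 peak called for time. The IL4R peaks are highest at 72 h in both GFP levels, and the JAK1 peak is highest at 24 h.

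The rest of the pathway was taken as a list of 49 other genes, of which 41 had a peak. Of their 162 peaks 44 were lower and 24 higher in GFP low (27.2% and 14.8%, beside 25.4% and 13.4% of all peaks), with a median log2 change of 0.03, the same as for all peaks. These counts were 29 and 8 with DESeq2 and 27 and 6 without the 72 h libraries, and 42 were higher in the fit on 18 columns. Ligand genes had 12 of 25 peaks lower and 2 higher (48% and 8%, against the same shares of all peaks), which is a description with no test. The wider list was not split by distance from start sites. Of all peaks farther than 1 kb from a start, 28.7% were lower and 9.23% higher. A peak 14.1 kb before IL6, the interleukin-6 gene (chr7:22712895-22713395), fell from 15.1, 11.7 and 9.68 to 6.91, 4.23 and 4.21 CPM (-1.26 ± 0.13, adjusted p = 2.68e-07). A peak near the end of IL4 (chr5:132681884-132682384) changed by -0.99 ± 0.13 (adjusted p = 4.86e-06). Receptor genes had 16 of 57 lower and 7 higher (28.1% and 12.3%). Falls included one inside IL10RB, the second chain of the IL-10 receptor (-0.69 ± 0.12), and another 15.3 kb before IFNGR1, a chain of the interferon gamma receptor (-0.69 ± 0.12).

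The other kinase and STAT genes had 1 of 14 peaks lower and 4 higher (7.14% and 28.6%, beside 25.4% and 13.4% of all peaks). Of all peaks within 1 kb of a start, 3.15% were lower and 35.9% higher. The peak at the start of STAT2, a factor of the interferon response, rose by 0.20 ± 0.07 (adjusted p = 0.0222). Under loess scaling its change was 0.02 and missed the threshold (adjusted p = 0.793). Genes of inhibitors had 10 of 45 lower and 10 higher (22.2% each), with falls inside PTPN1, a phosphatase that acts on JAK2 (-1.39 ± 0.25), and before SOCS6 (-1.04 ± 0.18). Target genes had 5 of 21 lower and 1 higher (23.8% and 4.76%). Falls lay inside CCL17, a chemokine gene that IL-4 induces (-0.84 ± 0.12), and 14.3 kb outside PIM1, a kinase gene induced by STATs (-1.24 ± 0.26).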

How the data were processed

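Omni-ATAC-seq was measured in 18 samples of Raji cells. The authors deposited raw read counts, not normalised, for 18 columns over 71318 peaks of 501 bp. The build hg38 and the tools BWA, FastQC, deepTools and R 4.2.1 are named in the submitters' processing notes. The peak caller, any removal of duplicates and any shift for transposase cuts were not given in the sources used here. D numbers in the column headers were read as days, and V numbers were not matched to replicates. The 3 columns of a group were summed.

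The 6 libraries were fitted with edgeR 4.0.16 in R 4.3.3 (limma 3.58.1, TMM scaling, robust quasi-likelihood, terms for time and GFP level, 2 residual degrees of freedom, median prior of 22.6) over all peaks, with Benjamini-Hochberg adjustment at 0.05. The low-count filter removed 0 peaks. Libraries were not replicated within a GFP level and time, so p-values rest on how far the GFP difference varied between times. That spread may be technical. With 2 residual degrees of freedom beside a median prior of 22.6, the variance of a peak was mostly borrowed from other peaks. Log2 CPM at single times used a prior count of 2, with 95% intervals from counting variance times 1.80.

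Peaks took a protein-coding gene as described above, after 95 readthrough genes were left out, which gave 59536 peaks a gene. Distances are from peak centres. For each gene the text gives the peak with the smallest p, the largest called fall and rise and the strongest peak at a gene end, plus others chosen after their values were seen. For each role of the wider list it gives the 2 smallest p, 1 per gene, of which 1 is not reported here. The members and lists were chosen with earlier results of these data known. DESeq2 1.42.0, other scalings, filters, columns, times and gene limits were alternatives. Genome sequence of the distal peaks was not used here.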

Additional observations from a re-analysis of the deposited data

Results flagged for a closer look

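At 4 peaks the counting interval of the GFP difference lay above 0 at 24 h and below 0 at a later time. The share of all peaks that did so was not counted, so this is not shown to be particular to these genes. Over all peaks within 1 kb of a start, the median difference was also higher at 24 h (0.26) than at 48 h (0.08). Each time rests on 1 library per GFP level, so the change between times was not tested. The peak 0.4 kb before the STAT6 start (chromosome 12, start 57110402) went from 0.24 at 24 h to -0.38 at 48 h, and the one 2.1 kb before it (start 57112186) from 0.24 to -0.23. The second peak beyond the end of IL4R (chromosome 16, start 27367868) went from 0.32 at 24 h to -0.43 at 48 h. The peak inside IL21R 22.8 kb after its start (start 27449826) went from 0.44 at 24 h to -0.75 at 72 h.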

How the results depend on the processing

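Of 29 alternatives for the GFP contrast over times, none turned the direction of a called or named peak past the threshold. DESeq2 called 3 members higher and loess scaling 6, 5 of them among the main 6. The fit on 18 columns called 13 higher, and 12 with the V number as a replicate block within time. Deviations of same-time columns across GFP levels correlated by -0.00278 to 0.0132 for like V numbers and by -0.0111 to 0.0105 for unlike ones, too little to treat V numbers as pairs, though 11 of 18 columns correlated best with their own number, a hint from the data and not the design. Columns of different times were not compared. With a 10 kb limit 8 members were lower. With only peaks centred inside genes, those near gene ends included, 7 were lower and 3 higher. Shares of all peaks under these limits were not counted. At 10 kb every lower peak of JAK2 and SOCS3 dropped out, as did the IL10RA peak 26.8 kb outside its gene. Those falls thus rest on the 50 kb limit. With 1 column left out, 13 to 16 were lower and 5 to 7 higher. For time, 1 member was higher with DESeq2, 6 on 18 columns and 6 with the block, and with 1 column left out 2 to 3 were higher and 1 lower. In the wider list DESeq2 called 29 lower and 8 higher, the 18 columns 42 higher (40 with the block), and the fit without the 72 h libraries 27 lower and 6 higher. Leaving out 1 column gave 39 to 44 lower and 19 to 24 higher.

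Counts past 2-fold were small. Lower peaks at 24, 48 and 72 h were 2, 1 and 1 with loess scaling and 3, 1 and 1 when a mean of 30 counts per column was required, a filter chosen after seeing the data. With V numbers read as time they were 3 at 24 h and 4 at 72 h, and the 1 higher peak at 72 h became 0 there and with that filter. Leaving out 1 column gave 3 to 6, 2 to 4 and 2 to 5 lower, and 0 to 1 higher at 72 h (0 at 24 and 48 h). Weak peaks limit all these counts.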
